A study of Mus musculus with 27 samples.

Results

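The 6 libraries described here are the 3 unstimulated libraries labelled MAECs and the 3 unstimulated libraries labelled MEFs, taken from a bulk RNA sequencing series of 27 mouse libraries. The design text names MAECs as aortic endothelial cells, MEFs as embryonic fibroblasts, and another cell type, BMDMs, as macrophages grown from bone marrow. Every library in the comparison is an untreated 0 h control for imidazole propionate (ImP), a metabolite of histidine made by gut bacteria, and no library used here received it. The question is which cell identity the libraries labelled MAECs show when they are set beside fibroblasts. The labels list both cell names under "cell line" and give no strain, genotype, animal, age, passage, isolation method or purity. They do not say whether the 3 libraries of a group came from separate cultures, so p-values measure only the spread between these libraries.

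The 2 groups also differ in handling. Per the labels, MAECs were plated in smaller wells and at fewer cells per well, their RNA was isolated with a micro-scale kit, and libraries were made with a single-cell and low-input kit. MEFs were plated in larger wells, their RNA came from a kit that the labels name as a DNA kit, and libraries were made with a directional kit, as were those of BMDMs. Cell type, plating, RNA kit and library kit therefore cannot be told apart in any value below. In bulk libraries, fewer cells of a type and less RNA per cell cannot be told apart either.

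Endothelial cells line vessels and are recognised by junction proteins such as PECAM1 and VE-cadherin (Cdh5), by the VEGF receptor KDR, by von Willebrand factor and by transcription factors of the ERG and SOX18 type. Fibroblasts of vessel walls and connective tissue carry PDGFRA and, in many tissues, THY1, and they secrete collagens and small proteoglycans. Vascular smooth muscle and pericytes, together called mural cells, carry contractile actin and its partners, and cultured fibroblasts can also make part of this contractile set. Hox genes, kept on in adult mesenchymal cells, record the position along the body axis from which a cell came.

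The 3 libraries labelled MAECs held 52161186, 21023626 and 27743390 counts and the 3 MEFs libraries 35262358, 33730943 and 31487855. Levels are CPM (counts scaled to a common library total), set by TMM over these 6 libraries, and 3 counts in a library correspond to 0.0627 to 0.156 CPM. Genes on X and Y were left out. Of 13991 genes tested, 5316 were higher in the libraries labelled MAECs (38.0%) and 5051 lower (36.1%), in all 74.1%, at an adjusted p under 0.05, with a median log2 fold change of 0.04 over all of them. Differences that also reached 8-fold were made by 11.3% of genes in the higher direction and 8.63% in the lower. A share of called members near these values is therefore what any list would show, and sizes are given beside every count. Spearman correlations of log2 levels across these genes, which are not independent, were 0.971 to 0.986 among the libraries labelled MAECs, 0.994 to 0.996 among MEFs and 0.682 to 0.720 between the groups. MAECs replicate 3 was the least like the other two of its group.

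One property of the transcripts moved with the comparison. In 12676 autosomal protein-coding genes, the median log2 fold change was 1.19 in the shortest of 5 length classes (216 to 1978 nucleotides) and -1.29 in the longest (5282 to 123179). Within the longest class, genes of the highest GC content had a median of -2.83 (246 genes), while short genes of low GC content had a median of 1.43 (250 genes). Single genes that nearly all cells use could differ widely: Polr2a, the largest subunit of RNA polymerase II, had 19.8 to 25.98 CPM against 301 to 365, and Ddx23, a splicing helicase, had 1.77 to 2.47 against 156 to 181 CPM. Polr2a and Ddx23 were chosen after their values were seen. The part of the library kit in these values was not tested. A second fit, in which a trend on transcript length and GC content was taken out of each library, is therefore quoted as the trend-removed fit, beside the counts of a list that it changes and beside the genes named here whose direction it turns. It called 38.8% of 13899 genes higher and 32.2% lower, in all 71.0%, with a median of 0.11.

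**Figure D1:**
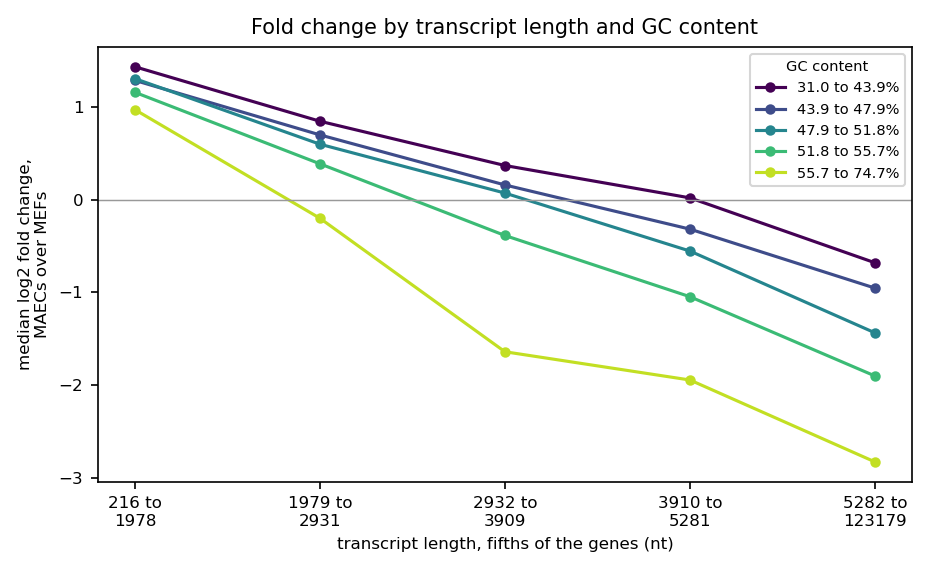
Median log2 fold change (vertical axis, libraries labelled MAECs over MEFs, 3 libraries each) of autosomal protein-coding genes in 5 classes of transcript length in nucleotides (horizontal axis), with 1 line per class of GC content. Every line falls from left to right, and the line for the highest GC content falls furthest, from 0.97 to -2.83.

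Most defining endothelial genes were at or near 0 in the libraries labelled MAECs. Pecam1, the platelet and endothelial adhesion molecule (ENSMUSG00000020717.19, GRCm38 chromosome 11, 106654217 to 106750628), was measured at 2.49, 1.82 and 0.540 CPM in the libraries labelled MAECs and 0.0834, 0.200 and 0.219 CPM in MEFs (log2 fold change 3.26 ± 0.80 SE, adjusted p = 0.0051). Cdh5, which encodes VE-cadherin, had 0.230, 2.86 and 0 CPM against 6.01, 5.63 and 6.16, so the fibroblast libraries held more of it in all 3 cases. This difference in Cdh5 did not pass the test (log2 fold change -2.61 ± 1.12 SE, adjusted p = 0.061). Kdr, the main VEGF receptor of endothelium, had no count in 2 of the libraries labelled MAECs and 0.956 CPM in replicate 3, against 1.20 to 2.47 CPM in MEFs (adjusted p = 0.13). Cdh5 passed as lower without MAECs replicate 2 (-5.39) or replicate 3 (-2.17), and Kdr without MAECs replicate 3 (-8.92). Both also passed as lower with limma-voom (-4.73 and -4.80) and with 27 libraries in the fit (-2.69 and -2.60). Vwf reached 0.272 CPM at most in the libraries labelled MAECs and 0.485 in MEFs.

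Erg, Tie1, Sox18, Cldn5, Robo4, Gpihbp1 and Ushbp1 had no count in any of the 3 unstimulated libraries labelled MAECs. Such zeros were not particular to these libraries: of 29 endothelial genes measured, 6 had no count in any MEFs library. A mean of 1 CPM was reached by 13 of the 29 in the libraries labelled MAECs and by 7 in MEFs. Over all 9 libraries labelled MAECs, including those given ImP for 1 or 2 h, Pecam1 spanned 0.14 to 4.32 CPM and Cdh5 0 to 2.49 CPM on a scale set over the 27 libraries, and Cldn5 and Robo4 stayed without a count. The macrophage libraries held 151.8 to 187.8 CPM of Vwf on the same scale.

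Some vascular receptors were far higher in the libraries labelled MAECs than in MEFs. Endoglin (Eng), a co-receptor for BMP9 and TGF-beta that endothelial cells, macrophages and activated fibroblasts share, had 124, 107 and 89.2 CPM against 2.28, 1.74 and 1.44 (log2 fold change 5.87 ± 0.23 SE, adjusted p = 1.3e-07). The 2 groups did not overlap, and unstimulated macrophages held 76.2 CPM. Ptprb, the vascular endothelial phosphatase VE-PTP, had 23.4, 19.3 and 16.0 CPM against 0.0286 to 0.195 (7.47 ± 0.47, adjusted p = 1.3e-06). Flt4, the receptor for VEGF-C, had 9.15 to 10.6 CPM against 0.371 to 1.09. Tek, the angiopoietin receptor, had 5.39, 2.03 and 2.08 CPM, while MEFs held 1 count in all, a ratio of 392 with a 95% interval of 69.9 to 15528 for counting error only.

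Flt1, the decoy-like VEGF receptor, went the other way, at 6.71, 7.02 and 4.53 CPM against 91.3, 98.3 and 104 (-4.004 ± 0.19, adjusted p = 3.2e-07). Plvap, of endothelial diaphragms, had 3.78 to 10.4 CPM against 8.45 to 10.8 CPM, with overlapping groups. Of the 30 listed endothelial genes 29 were measured and 17 passed the filter on low counts: 11 were higher (7 of them by at least 8-fold), 1 was lower and 5 did not pass. Their median log2 fold change was 2.56, and the trend-removed fit gave 10 higher and 1 lower. Only Eng and Ptprb reached a mean of 10 CPM in the libraries labelled MAECs, and only Flt1 did in MEFs. The summed level of the list was 143 to 199 CPM against 118 to 128 CPM.

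Genes that mark arterial endothelium were split. The gap junction genes Gja4 (4.10 to 7.91 CPM against 0 to 0.111) and Gja5 (1.30 to 2.18 against 0 to 0.0625) were higher in the libraries labelled MAECs, and both are also made by mural cells. Efnb2, an ephrin of arteries and of many mesenchymal cells, was lower, at 34.9, 34.3 and 26.5 CPM against 162, 127 and 168 (-2.26 ± 0.16, adjusted p = 3.0e-06). Hey2, a Notch target of arterial fate, had 0, 0.572 and 0 CPM against 1.51 to 3.03, and lost its lower call without MEFs replicate 1, 2 or 3 (-3.69, -4.17 and -3.74). In all, 2 of 6 tested members were higher and 4 lower, with a median of -1.35, and 3 higher and 2 lower in the trend-removed fit. Unc5b and Jag1 lost their lower call in the trend-removed fit, in which Unc5b was higher (1.00 ± 0.10) and Jag1 was at 0.02 ± 0.15.

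Surface proteins and secreted products of connective tissue fibroblasts were abundant in the libraries labelled MAECs. Of the 29 fibroblast genes tested, 13 were at least 8-fold above the embryonic fibroblasts and 3 at least 8-fold below. Over all genes these shares were 11.3% and 8.63%. Thy1, a surface glycoprotein of fibroblasts, neurons and T cells (ENSMUSG00000032011.5, chromosome 9, 44043384 to 44048579), was measured at 461, 489.6 and 544 CPM against 0.612, 1.11 and 1.03 CPM (log2 fold change 9.08 ± 0.22 SE, adjusted p = 3.7e-08). Pdgfra, the PDGF receptor that marks fibroblasts, had 315, 366 and 339 CPM against 25.6, 27.5 and 27.9 (3.65 ± 0.12, adjusted p = 5.9e-08). Both genes were high in every library labelled MAECs of the series, at 402 to 514 CPM for Thy1 and 302 to 415 CPM for Pdgfra over the 9 libraries. Ly6a (Sca-1), a marker of adventitial and progenitor-like stromal cells, had 399, 476 and 682 CPM against 31.6 to 39.4. Cd248 (endosialin) and Pdgfrb, of fibroblasts and mural cells, were higher too, at 128 to 191 against 15.3 to 17.9 CPM and 65.6 to 87.3 against 21.1 to 25.2 CPM.

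Cd34, found on stromal, endothelial and blood progenitor cells, was the exception among the surface proteins, with 124, 110.3 and 92.0 CPM against 702, 645 and 718 (-2.66 ± 0.14, adjusted p = 4.1e-07). Among genes linked to the adventitia, the outer coat of vessels, and to fibroblasts found in most tissues, Serpinf1, which encodes the secreted factor PEDF, had 2104, 2134 and 2274 CPM against 8.56, 10.7 and 7.19. Cd55, a complement regulator on the cell surface, had 222, 232 and 205 CPM against 0.0313 to 0.457. Pi16, a marker of one adventitial fibroblast state, had 8.76 to 12.9 CPM against 0 to 0.222. Gli1, a Hedgehog target and adventitial progenitor marker, was at 0 in all 3 libraries labelled MAECs and at 0.969 to 1.17 CPM in MEFs, at least 9.23-fold lower against a floor of 3 counts per library.

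Non-fibrillar matrix genes of fibroblasts were also higher. Mfap5, of the microfibril, had 439, 444 and 584 CPM against 0.750 to 0.862 CPM (9.22 ± 0.20, adjusted p = 3.1e-08), and dermatopontin (Dpt) had 141, 91.9 and 59.1 CPM against 0.0571 to 0.125. Decorin (Dcn) had 34.3, 39.1 and 46.8 CPM against 6.65 to 7.75, and Sparc, a collagen-binding glycoprotein, had 4154 to 5027 against 1108 to 1385 CPM. Lumican (Lum) was at 1.69 to 3.02 CPM against 0 in all MEFs, at least 26.3-fold higher. Fap, the fibroblast activation protein, was not tested, with 5.81, 0.208 and 1.87 CPM against 0 in all 3 MEFs libraries.

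Of 8 collagens, 1 was higher and 7 lower as fitted, and 3 were higher and 3 lower in the trend-removed fit. Col3a1 alone was higher as fitted, at 86.3, 86.7 and 94.6 CPM against 2.53, 2.28 and 2.06 (5.28 ± 0.16, adjusted p = 4.7e-08). Col1a1, the main chain of type I collagen, had 652, 447 and 459 CPM against 2493, 1816 and 2610 (-2.15 ± 0.20), but was at 0.64 ± 0.14 in the trend-removed fit. Col1a2 turned in the same way, from -1.39 ± 0.12 to 0.58 ± 0.11. Col6a3 stayed lower in both fits, with 8.71, 6.97 and 2.74 CPM against 370.2 to 401. Fibronectin (Fn1), 1647 to 2197 CPM against 4534 to 4875, moved from -1.25 ± 0.13 to 1.05 ± 0.09.

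Of the 31 fibroblast genes 29 passed the filter; 19 were higher (13 by at least 8-fold) and 10 lower (3 by at least 8-fold), with a median of 1.84. In the trend-removed fit 22 were higher and 5 lower, with a median of 2.49. The libraries labelled MAECs reached a mean of 10 CPM in 26 of the 31 genes and MEFs in 16. Macrophages did so in 2. The summed level of the list was 15324 to 16103 CPM in the libraries labelled MAECs and 12941 to 15172 CPM in MEFs.

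**Figure D2:**
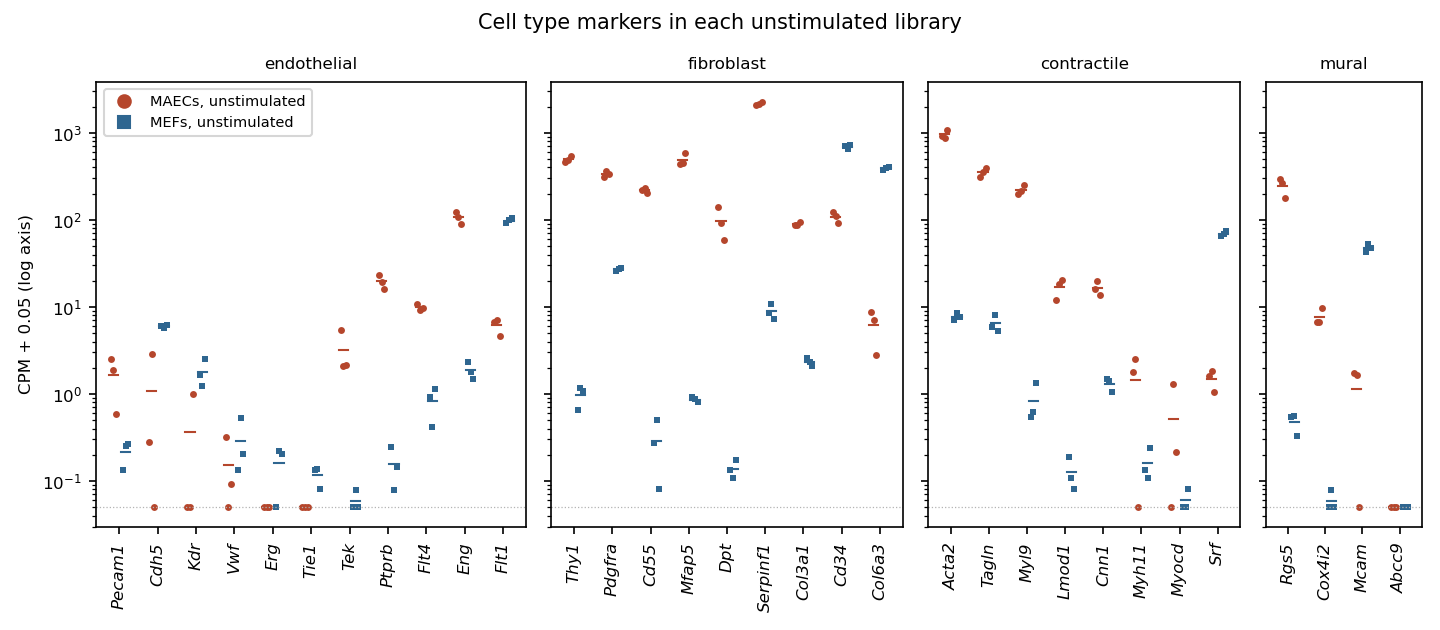
Level of marker genes in each unstimulated library, as CPM plus 0.05 on a log axis (vertical), for libraries labelled MAECs (circles) and MEFs (squares), 3 each; short bars are group means, the dotted line is 0 CPM, and genes are grouped by the cell type they are used to mark. Pecam1, Cdh5, Kdr, Vwf, Erg and Tie1 lie below 3 CPM in every library labelled MAECs, while Thy1, Pdgfra, Serpinf1, Acta2, Tagln and Rgs5 lie above 170 CPM in all 3.

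The libraries labelled MAECs also carried a contractile gene set, while Myh11, Myocd and Kcnmb1, of differentiated smooth muscle, were low or without a count. All 13 listed contractile genes, Myh11 included, reached a mean of 1 CPM in the libraries labelled MAECs, and 9 did in MEFs. Smooth muscle alpha-actin (Acta2, ENSMUSG00000035783.9, chromosome 19, 34241090 to 34255590) was at 916, 879 and 1086 CPM against 7.09, 8.40 and 7.60 CPM (6.96 ± 0.15 SE, adjusted p = 3.1e-08). Transgelin (Tagln, SM22-alpha) had 313, 357 and 394 CPM against 5.28 to 8.02, and the regulatory light chain Myl9 had 199, 217 and 252 CPM against 0.500, 0.571 and 1.28. For each of these 3 genes the groups did not overlap, as was so for 40.1% of all genes with the libraries labelled MAECs above and 39.6% with MEFs above. Tropomyosin 2 (Tpm2) was at 525 to 808 CPM against 32.2 to 34.5, and caldesmon (Cald1), common to fibroblasts and muscle, at 2127 to 2434 against 775 to 824 CPM. Leiomodin 1 (Lmod1) had 11.996 to 20.6 CPM against 0.0313 to 0.139, and calponin 1 (Cnn1) 13.6 to 19.8 against 1.00 to 1.42 CPM.

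Smooth muscle myosin heavy chain (Myh11), the marker that separates smooth muscle from other contractile cells, had only 1.73, 2.50 and 0 CPM in the libraries labelled MAECs and up to 0.188 CPM in MEFs. Myocardin (Myocd), the co-activator that drives the full smooth muscle programme, had 0, 1.25 and 0.166 CPM, and the channel subunit Kcnmb1 had no count in any of the 6 libraries. None of Myh11, Myocd and Kcnmb1 passed the filter on low counts. Angiotensin receptors were present: Agtr1b had 74.9, 74.8 and 101 CPM against 0.0278 to 0.200, and Agtr1a had 1.505 to 3.08 CPM against 0, at least 26.5-fold higher. Of the 21 smooth muscle genes 17 were tested, 12 were higher (10 by at least 8-fold), 3 lower and 2 did not pass, with a median of 4.25, and 13 higher and 2 lower in the trend-removed fit. Of the 3 lower genes, 2 were lower by at least 8-fold. Mylk, one of the lower genes, was higher in the trend-removed fit (0.79 ± 0.23). Smtn, a listed contractile gene, was lower in both fits (-3.015 as fitted and -1.273 in the trend-removed fit).

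Serum response factor (Srf), which binds CArG boxes in the promoters of contractile and growth-response genes, was lower, at 1.55, 1.77 and 0.998 CPM against 64.9, 69.1 and 74.8 (-5.59 ± 0.22, adjusted p = 1.3e-07; -3.87 ± 0.18 in the trend-removed fit). Of the 12 contractile genes tested, 9 were higher and 2 lower. The 250 bases before the start of Acta2, Myl9 and Srf are shown because Srf was lower while Acta2 and Myl9 were higher. They are RefSeq sequences of build GRCm38.p6, written 5′ to 3′ on the strand of the gene. Capitals mark only matches to the strict form of the CArG box, and looser forms are not marked.
Acta2, minus strand, chr19:34255374-34255623: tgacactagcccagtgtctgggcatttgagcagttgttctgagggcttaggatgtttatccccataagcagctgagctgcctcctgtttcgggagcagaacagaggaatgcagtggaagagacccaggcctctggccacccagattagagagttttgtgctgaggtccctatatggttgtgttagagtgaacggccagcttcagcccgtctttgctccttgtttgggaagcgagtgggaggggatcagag
Myl9, plus strand, chr2:156775214-156775463: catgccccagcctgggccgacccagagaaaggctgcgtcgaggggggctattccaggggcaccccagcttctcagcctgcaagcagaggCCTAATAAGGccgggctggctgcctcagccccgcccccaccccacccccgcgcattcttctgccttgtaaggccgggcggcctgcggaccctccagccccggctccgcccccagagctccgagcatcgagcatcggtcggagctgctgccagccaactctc
Srf, minus strand, chr17:46556163-46556412: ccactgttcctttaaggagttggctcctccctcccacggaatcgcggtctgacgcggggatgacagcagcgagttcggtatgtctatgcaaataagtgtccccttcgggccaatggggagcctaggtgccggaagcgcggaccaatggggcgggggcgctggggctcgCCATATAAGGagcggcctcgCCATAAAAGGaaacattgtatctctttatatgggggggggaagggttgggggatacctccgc
The motif was searched in its strict form, which reads the same way on both strands, and 1.47% of the 32851 promoter windows of the table held it. Myl9 has 1 match, whose first base lies 161 bases before the start, and Srf has 2, at 82 and 62 bases. Of the 13 listed contractile genes 10 had a promoter window, and among these Myl9 was the 1 with a strict match. Tagln, Myh11 and Actg2 had no window and were not searched. A window without a strict match, such as that of Acta2, can still hold a looser form. A match is a description of the letters and no evidence of binding.

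Pericyte genes ranged from very high to absent. Of the 9 listed, 6 reached a mean of 1 CPM in the libraries labelled MAECs and 4 in MEFs. No count was found for 2 of them in any library labelled MAECs and for 3 in any MEFs library. Rgs5, a regulator of G-protein signalling that marks pericytes and some smooth muscle, had 296, 267 and 179.6 CPM against 0.500, 0.514 and 0.281 (9.14 ± 0.30, adjusted p = 7.0e-08). Cox4i2, a cytochrome oxidase subunit of mural cells, had 6.61 to 9.56 CPM, while MEFs held 1 count in all. In contrast, Abcc9 and Higd1b had no count in any of the 6 libraries, and Kcnj8 had 0.878, 0 and 0 CPM against 0. Mcam (CD146) was lower, at 1.67, 1.61 and 0 CPM against 42.8 to 52.3. Of 9 genes 6 were tested, 3 were higher, 2 lower and Notch3 did not pass. In the trend-removed fit 4 were higher and 1 lower: the lower call of Cspg4 was lost (0.54 ± 0.26, adjusted p = 0.086), and Notch3 was higher (3.303 ± 0.35).

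**Figure D3:**
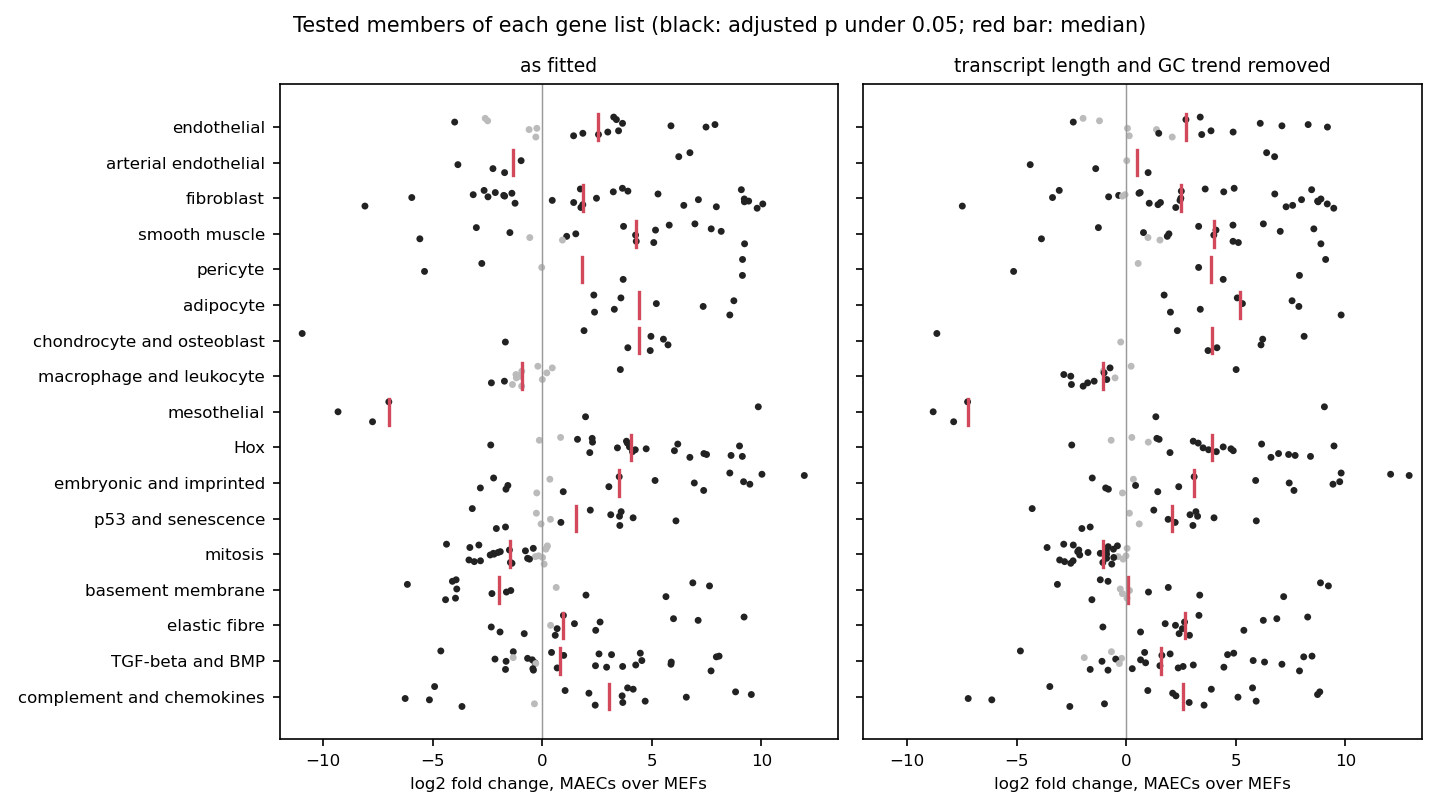
Log2 fold change (horizontal axis, libraries labelled MAECs over MEFs) of each tested member of 17 gene lists (rows), as fitted on the left and with the trend on transcript length and GC content removed on the right; black points passed an adjusted p of 0.05, grey points did not, and red bars are list medians. The basement membrane and arterial endothelial medians lie below 0 on the left (-1.97 and -1.35) and above 0 on the right (0.09 and 0.51), while the fibroblast, smooth muscle, Hox and imprinted medians lie above 0 on both sides.

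Genes of fat, cartilage and bone were present as well. All 8 tested adipocyte genes were higher in the libraries labelled MAECs (median 4.39), led by the fatty acid binding protein Fabp4 at 126, 109.8 and 180.0 CPM against 3.14 to 4.26 and by Pparg, the regulator of fat cell formation, at 62.7 to 86.3 against 12.8 to 15.1 CPM. Adiponectin (Adipoq), made by mature fat cells, had 5.29, 8.11 and 16.5 CPM, with 2 counts in all MEFs libraries together. Of 9 adipocyte genes measured, 5 reached a mean of 10 CPM in the libraries labelled MAECs, 1 in MEFs and 5 in unstimulated macrophages. Of the cartilage and bone genes, osteopontin (Spp1) was the highest gene of the list per kilobase, at 33316, 28968 and 37452 CPM against 930.1, 1322 and 1034 (4.92 ± 0.18, adjusted p = 1.1e-07). Sox9, the cartilage regulator, had 230.1 to 266 CPM against 62.9 to 71.4. Aggrecan (Acan), a Sox9 target in cartilage, was nearly absent, at 0.0416 to 0.104 CPM against 125 to 152 CPM in MEFs (-10.97 ± 0.24). Col2a1, another cartilage gene of the list, was higher (4.955, adjusted p = 4.1e-05, and 8.119 in the trend-removed fit). Both groups thus carried Spp1 and Sox9, at different levels. Of the 12 listed genes, 3 reached a mean of 10 CPM in the libraries labelled MAECs and 4 in MEFs. Of 8 tested, 6 were higher and 2 lower, and 6 and 1 in the trend-removed fit.

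Markers of cells that could have been carried over were checked by list. The 15 macrophage and leukocyte genes summed to 56.4 to 96.1 CPM in the libraries labelled MAECs and 42.6 to 59.2 CPM in MEFs, while each of the 15 reached 10 CPM in macrophages. Of 13 tested, 1 was higher, 2 lower and 10 did not pass; in the trend-removed fit 1 was higher and 9 lower. Ptprc (CD45) had 0.251 to 1.29 CPM against 0.334 to 0.971, with overlapping groups. Csf1r, the receptor for CSF1, stood out at 20.1, 31.3 and 35.9 CPM against 1.86 to 3.48, against 2170 CPM in unstimulated macrophages. The part of such cells in the values above was not tested. The 10 epithelial genes summed to 0.50 to 1.82 CPM against 2.50 to 3.10 CPM.

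Mesothelial genes, of the lining of body cavities, were mixed. Mesothelin (Msln) was at 1.04, 1.66 and 0.914 CPM against 151, 147 and 155 in MEFs, whereas the uroplakin Upk1b was at 102, 59.1 and 64.8 CPM against 0 to 0.139. Of 10 genes 5 were tested, with 2 higher and 3 lower; the median was -7.01 as fitted and -2.86 with genes at 0 in one group set to their bound. Wt1 had no count in any of the 6 libraries. Among glial genes, S100b had 10.5 to 17.7 CPM against 0 to 0.167, and Sox10 had no count in the libraries labelled MAECs. Of 3 glial genes tested, 1 was higher, 1 lower by at least 8-fold and 1 did not pass, with a median of -0.11. Acta1 (4.32 to 10.1 CPM against 0 to 0.286) was the 1 skeletal muscle gene that was tested, and Myog and Myf5 had no count in any of the 6 libraries.

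Hox genes, the markers of regional identity, were mostly higher in the libraries labelled MAECs. They lie in 4 clusters in which the paralog number follows the position along the body, from head to tail. Of 32 Hox genes measured, 22 were tested; 19 were higher in the libraries labelled MAECs (15 by at least 8-fold), Hoxa10 was lower and 2 did not pass, with a median of 4.04; the trend-removed fit gave 18 higher and 1 lower. Their summed level was 456 to 544 CPM against 36.5 to 39.3 CPM, and 14 genes reached 10 CPM in the libraries labelled MAECs, while the highest mean in MEFs was 6.43 CPM, for Hoxa7.

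In cluster Hoxa, Hoxa7 had 89.5, 95.6 and 98.8 CPM against 6.34, 6.31 and 6.63 (3.88 ± 0.13, adjusted p = 7.2e-08), and Hoxa5 had 74.7, 81.2 and 31.5 CPM against 3.68 to 5.59. Hoxa2 and Hoxa3 were at 12.1 to 24.3 CPM and Hoxa9 at 7.54 to 14.3 CPM in the libraries labelled MAECs. Hoxa10 had 0.0418, 0.312 and 0.914 CPM against 1.47, 2.74 and 2.09 (adjusted p = 0.042), a call lost without MAECs replicate 2 (-2.25) or any 1 of the MEFs libraries (-2.67, -2.22 and -2.37). In cluster Hoxb all 8 tested genes were higher, among them Hoxb2 (34.6 to 39.1 CPM against 0.0278 to 0.125), Hoxb6 (34.9 to 40.1 against 1.86 to 2.09) and Hoxb7 (34.6 to 45.2 against 0.125 to 1.00).

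The median log2 fold change was 7.49 over the 5 tested genes of cluster Hoxc, against 4.18 in Hoxb and 2.27 in Hoxa. Hoxc6 had 44.1, 47.4 and 38.2 CPM against 0.0625 to 0.167 (8.61 ± 0.30, adjusted p = 7.7e-08), and Hoxc8 had 39.1, 37.1 and 27.8 CPM against 0, 0.171 and 0. The summed level of the 8 Hoxc genes in the table was 93.7 to 128 CPM against 0.16 to 0.66 CPM. Genes of paralog number 10 to 13 in clusters Hoxa, Hoxb and Hoxc had means below 1 CPM in the libraries labelled MAECs, and the 4 Hoxd genes measured summed to at most 0.84 CPM in any of the 6 libraries.

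**Figure D4:**
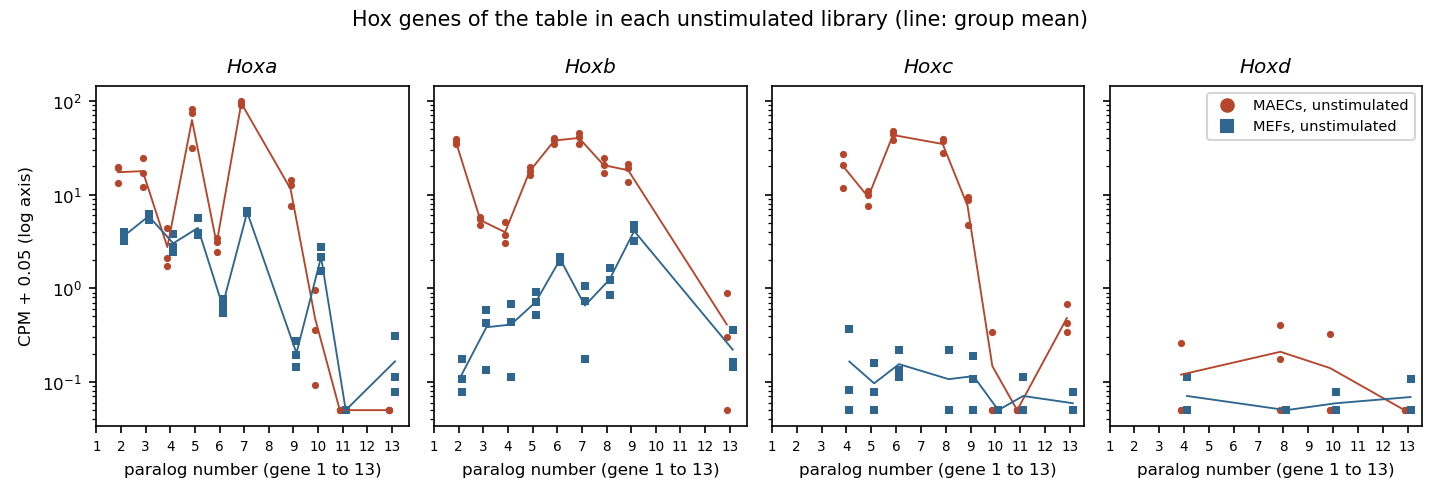
Level of Hox genes of the table, as CPM plus 0.05 on a log axis (vertical), against paralog number (horizontal) in the 4 clusters, for libraries labelled MAECs (circles) and MEFs (squares), 3 each; lines join group means over the genes shown. Hoxb2 to Hoxb9 and Hoxc4 to Hoxc9 lie above the MEFs libraries throughout, and both groups fall to under 3 CPM from paralog 10 on.

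Other transcription factors of the body plan differed in both directions. Tbx18, of the outer heart layer and of mural cells, had 18.3, 19.2 and 7.15 CPM with 3 counts in all MEFs libraries together, and Mef2c, of muscle, endothelium and macrophages, had 17.2 to 19.8 against 0.719 to 1.23 CPM. Foxf1, of lung and gut mesenchyme, was lower at 0.125, 0.624 and 0 CPM against 24.4 to 29.8. The related limb and head factors Twist1 and Twist2 moved apart, with Twist1 at 4.41 to 7.75 against 53.3 to 62.9 CPM and Twist2 at 56.3 to 96.3 against 8.91 to 10.7 CPM. Of 36 such factors measured, 24 were tested, 8 were higher and 9 lower, with a median of -0.07, and 9 higher and 8 lower in the trend-removed fit, shares near those of all genes.

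Imprinted genes, which are read from only the maternal or the paternal copy and are mostly active in fetal tissue, included a set that was abundant in the libraries labelled MAECs and near 0 in the embryonic fibroblasts. Meg3, the maternally expressed noncoding RNA of the Dlk1-Meg3 domain (ENSMUSG00000021268.17, chromosome 12, 109541001 to 109571726), was at 431, 378 and 442 CPM against 0.417, 0.571 and 0.188 CPM (10.02 ± 0.27 SE, adjusted p = 4.3e-08). Its neighbour Rian had 114, 92.3 and 123 CPM against 0.0834 to 0.343, and Mirg had 4.28 to 6.09 against 0 to 0.114 CPM. Dlk1, the paternally expressed Notch-like ligand of the same domain, had 89.0, 66.6 and 56.4 CPM against 0.0625 to 0.343. Macrophages held 0.345 CPM of Meg3, close to MEFs.

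Ndn, Snrpn and Peg3, paternally expressed genes of other domains, followed. Ndn (necdin) had 114, 121 and 104 CPM against 0.0834 to 0.257, Snrpn had 112, 99.9 and 101 CPM against 0 to 0.228, and Peg3 had 16.9, 9.93 and 19.2 CPM against 0 in all MEFs, at least 175-fold higher. Grb10, an adaptor that restrains insulin and growth factor signals, had 407, 388 and 319 CPM against 10.3 to 10.6 (5.14 ± 0.14). Igf2 and H19, the best known imprinted pair, did not exceed 0.878 CPM in any of the 6 libraries and were not tested. Plagl1, a zinc finger gene of imprinted gene networks, was lower, at 5.20 to 5.60 against 21.1 to 29.4 CPM. Of 14 imprinted genes 12 were tested, 9 were higher (9 by at least 8-fold), 2 lower and Cdkn1c did not pass, with a median of 6.04, and 10 higher and 1 lower in the trend-removed fit. Igf2r, the second lower gene, was higher in the trend-removed fit (0.42 ± 0.12).

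The fetal RNA-binding proteins that stabilise growth transcripts were divided. Igf2bp3 had 58.4, 65.1 and 47.0 CPM against 0.257 to 0.500 (7.36 ± 0.28), while Igf2bp1 had 6.58 to 9.41 against 48.2 to 58.7 CPM. Lin28a and Lin28b had no count in any of the 6 libraries.

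Several targets of p53, the factor that halts or removes damaged cells, were higher in the libraries labelled MAECs. Cdkn1a, the p21 inhibitor of the cell cycle, was at 766, 803 and 1030 CPM against 69.5, 80.4 and 64.9 (3.60 ± 0.16 SE, adjusted p = 2.0e-07). Mdm2, which limits p53, had 657, 773 and 464 CPM against 68.1 to 77.0, and Ccng1 had 1190 to 1556 against 116 to 134 CPM. Phlda3 (489 to 576 against 29.7 to 32.3 CPM), the death effector Bax (377 to 468 against 32.0 to 41.3) and the stress cytokine Gdf15 (61.6 to 66.8 against 0.528 to 1.17) lay apart in the same way. Trp53 itself had 126, 147 and 154 CPM against 165, 166 and 186 (-0.28 ± 0.12, adjusted p = 0.060), but passed as lower with limma-voom (-0.29), with library totals (-0.48) and without MAECs replicate 3 (-0.40) or MEFs replicate 1 or 2 (-0.43 each). Bbc3, another target, did not pass either, at 4.68 to 7.38 against 6.31 to 6.85 CPM.

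Cdkn2a, the locus of the senescence proteins p16 and ARF, was lower at 18.9, 14.4 and 27.5 CPM against 186, 187 and 186 (-3.20 ± 0.22, adjusted p = 2.4e-06). Of the 14 tested genes, 8 were higher (6 by at least 8-fold), 3 lower and 3 did not pass, with a median of 1.52, and 9 higher and 3 lower in the trend-removed fit. Counts per symbol cannot separate the p16 and ARF transcripts of Cdkn2a.

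Most genes of DNA replication and of the cycle were lower in the libraries labelled MAECs. Mki67, the proliferation antigen, was at 49.5, 56.6 and 47.3 CPM against 1074, 1053 and 1058 (-4.38 ± 0.12, adjusted p = 4.3e-08; -2.85 ± 0.08 in the trend-removed fit). The replication helicase subunits Mcm2, Mcm3 and Mcm5 had 21.2 to 48.7 CPM against 268 to 347 CPM, and cyclin A2 (Ccna2) had 28.8 to 55.5 against 375 to 435. Cyclin B1 (Ccnb1), by contrast, had 147, 199 and 204 CPM against 167, 145 and 158, and Cdc20 had 118, 140.1 and 134 against 137, 118 and 134, with overlapping groups. Of 25 genes, 18 were lower (4 by at least 8-fold) and 7 did not pass, with a median of -1.46; in the trend-removed fit 21 were lower, Ccnb1 (-0.40 ± 0.14) and Cdc20 (-0.57 ± 0.11) among them.

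**Figure D5:**
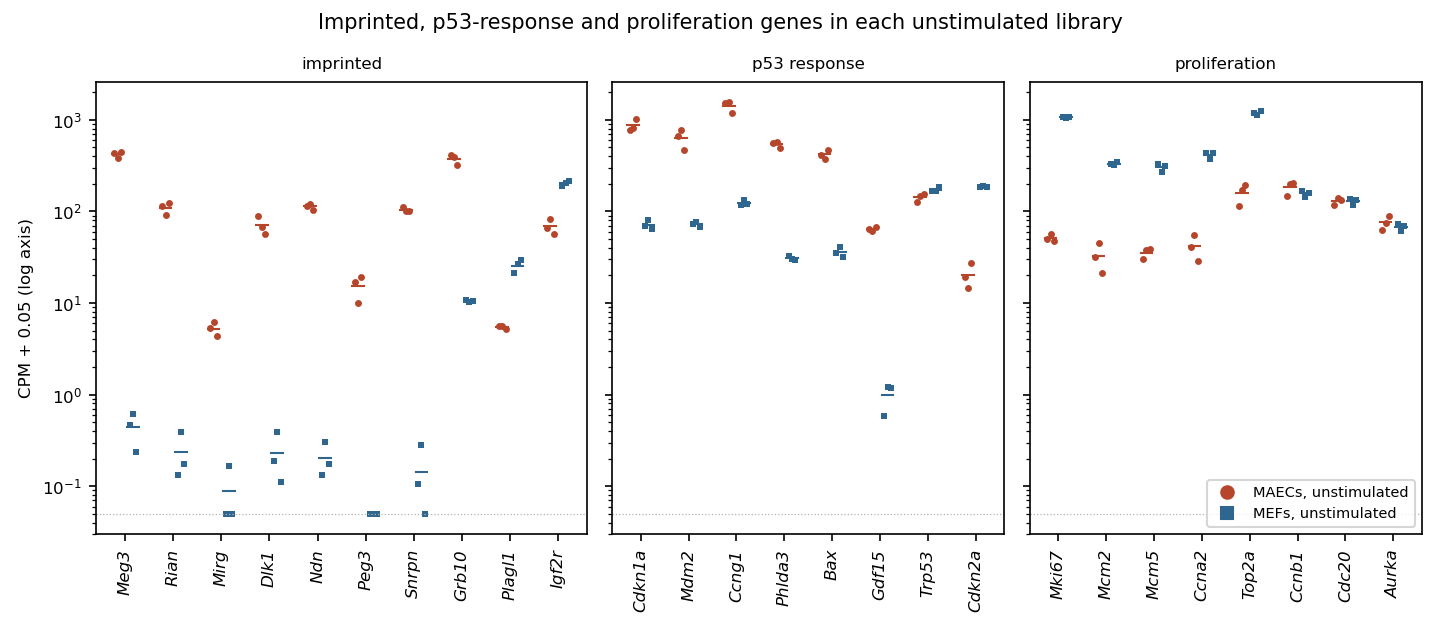
Level of imprinted, p53-response and proliferation genes in each unstimulated library, as CPM plus 0.05 on a log axis (vertical), for libraries labelled MAECs (circles) and MEFs (squares), 3 each; short bars are group means and the dotted line is 0 CPM. Meg3 to Grb10 and Cdkn1a to Gdf15 lie higher in the libraries labelled MAECs, Mki67 to Top2a lie lower, and Trp53, Ccnb1, Cdc20 and Aurka lie close together.

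The sheet of matrix under endothelium and around muscle cells showed 2 different patterns. Laminin alpha 2 (Lama2), the muscle-type laminin, had 43.2, 52.8 and 56.4 CPM against 0.139 to 0.3998, Col15a1 had 12.3 to 13.7 against 0.0625 to 0.167 CPM, and the linker nidogen 1 (Nid1) had 1074 to 1132 against 252 to 298 CPM. Type IV collagen was lower, with Col4a1 at 51.9, 45.1 and 36.4 CPM against 665, 638 and 746 (-3.94 ± 0.16), and so was Col18a1, at 3.45 to 5.85 against 287 to 353 CPM. The lower call of perlecan (Hspg2), 71.7 to 105 against 1403 to 1521 CPM, was lost in the trend-removed fit (0.04 ± 0.15), while Col4a1 and Col18a1 kept theirs (-1.19 ± 0.11 and -3.14 ± 0.18). Of 14 genes 4 were higher and 9 lower as fitted, with a median of -1.97; in the trend-removed fit 6 were higher and 4 lower, with a median of 0.09.

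Elastic fibre genes give arteries and skin their recoil, and most of those tested were higher. The fibulin-like Efemp1 had 995, 1056 and 1041 CPM against 6.62, 8.31 and 7.44 (7.11 ± 0.14, adjusted p = 3.1e-08). Fibulin 5 (Fbln5) had 224 to 277 against 3.61 to 4.25 CPM, and Mfap2, of the microfibril, 81.2 to 83.3 against 0.0938 to 0.171 CPM. The cross-linking enzyme Lox was at 1477, 1288 and 619 CPM against 367 to 451. Elastin (Eln), made in bulk by arterial smooth muscle, had 1.30, 2.65 and 0.0831 CPM against 0 to 0.0286 CPM in MEFs and was not tested. The lower genes were the cross-linking enzyme Loxl2 and the latent TGF-beta binding proteins Ltbp3 and Ltbp4. Ltbp3 (0.65) and Ltbp4 (2.41) were higher in the trend-removed fit, and Ltbp4 lost its lower call without MEFs replicate 3 (-0.74). Of 15 genes 13 were tested, with 9 higher, 3 lower and a median of 0.96; the trend-removed fit gave 12 higher and 1 lower, with a median of 2.66.

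In TGF-beta and BMP signalling, 7 of 10 ligands and antagonists were higher and 2 lower, and 6 of 9 targets were higher and 3 lower. Of 9 receptors, 3 were higher and 5 lower. Over all genes 38.0% were higher and 36.1% lower. The trend-removed fit gave 5 higher and 2 lower receptors, 7 higher and 1 lower ligands and antagonists, and 7 higher and 2 lower targets. The BMP antagonist gremlin 1 (Grem1) had 347, 299 and 252 CPM against 0.945 to 1.54 (7.94 ± 0.23, adjusted p = 4.7e-08), Bmp2 had 22.05, 10.5 and 7.36 CPM against 0.389 to 0.844, and Bmp4 had 7.04 to 13.51 against 1.23 to 2.06 CPM. Tgfb1 was lower, at 1.67, 1.72 and 1.87 CPM against 42.1 to 46.1 (-4.64 ± 0.17). Among receptors, Acvrl1, the partner of endoglin in endothelium, had 45.6, 39.7 and 55.5 CPM against 1.75 to 2.17, and macrophages held 34.8 CPM. Tgfbr2 had 42.5 to 47.6 against 189 to 212 CPM.

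BMP target genes of the Id family were all higher, with Id1 at 305, 296 and 385 CPM against 14.1 to 18.8 and Id3 at 805, 844 and 1081 against 62.6 to 77.3. The TGF-beta-induced matrix gene Tgfbi had 257, 257 and 263 CPM against 1.09 to 1.43 (7.70 ± 0.15). In all, 16 of 28 tested genes were higher and 10 lower, with a median of 0.82. The trend-removed fit gave 19 higher and 5 lower.

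Secreted immune mediators were exchanged between the groups. Cxcl12, the stromal chemokine that holds blood progenitors, had 1688, 1487 and 1020 CPM against 48.9 to 59.0, and Csf1, the growth factor of macrophages, had 1688 to 2512 against 371 to 444 CPM. The monocyte chemokines Ccl2 (515 to 785 against 40.4 to 59.5 CPM) and Ccl7 (301 to 494 against 3.45 to 4.31 CPM) were higher as well. Neutrophil chemokines went the other way, with Cxcl1 at 0.815, 1.66 and 2.08 CPM against 103, 139 and 89.5 (-6.26 ± 0.35, adjusted p = 7.2e-07) and Cxcl5 at 0.416 to 0.899 against 22.2 to 24.9 CPM. Cx3cl1, a membrane-bound chemokine of endothelium and epithelium, was lower too, at 9.14 to 12.9 against 134 to 149 CPM.

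Among complement genes, the C1 inhibitor Serping1 had 80.8, 124 and 172 against 0.0625 to 0.343 CPM. C3, the central component, was lower, at 0.291 to 1.40 against 28.3 to 31.7 CPM. Of the 18 complement and chemokine genes 16 were tested, 11 were higher (8 by at least 8-fold) and 4 lower (4 by at least 8-fold), with a median of 3.03, and 11 higher and 5 lower in the trend-removed fit. Interferon response genes went both ways: 2 of 13 tested were higher, 5 lower (4 in the trend-removed fit) and 6 did not pass, with Ifit3 at 15.7 to 30.5 against 2.40 to 2.81 CPM and Rsad2 at 0 to 0.0418 against 4.50 to 7.11 CPM. Immediate early genes, which serum and handling induce within minutes, were higher in 12 of 22 cases (14 in the trend-removed fit) and lower in 5, with Dusp1 at 134 to 261 against 15.3 to 21.02 CPM and Jund at 7.56 to 12.3 against 166 to 185 CPM.

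Genes were also ranked by size of change. The ranking took only called autosomal protein-coding genes whose groups did not overlap and whose higher group averaged at least 50 CPM. Predicted genes, Rik clones and pseudogenes were not named. Most in favour of the libraries labelled MAECs were Ch25h, Serpinb6c, Galnt18, Dpt, Snrpn, Fmo2, Upk1b, Prl, Cd55, Hsd3b6, Adam23 and Agtr1b. Ch25h, which makes the oxysterol 25-hydroxycholesterol, had 56.1, 61.8 and 79.2 CPM with 3 counts in all MEFs libraries together, a ratio of 2177 with a 95% interval of 744 to 10558 for counting error only. The flavin monooxygenase Fmo2 had 140.4, 156 and 143 CPM against 0.0625 to 0.228, and the steroid dehydrogenase Hsd3b6 had 181 to 204 against 0.156 to 0.371 CPM. Prolactin (Prl) was at 54.6 to 74.2 against 0.0313 to 0.0857 CPM. Its relatives Prl2c2 (4415, 3802 and 5404 CPM against 33.9 to 38.2) and Prl2c3 (1875 to 3049 against 8.13 to 15.3) encode proliferins, growth-linked hormones first found in cultured fibroblasts. Prl2c2 and Prl2c3 are near-identical copies, so the split of counts between them is uncertain.

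On the fibroblast side the same rule gave Runx3, Acan, Odaph, Cxcl10, Itga3, Tnfrsf9, Cxadr, Msln, Rab11fip1, Car9, Ccl5 and Espl1. Runx3, a transcription factor of cartilage, T cells and neurons, had 77.7, 88.1 and 101 CPM in MEFs and 3 counts in all libraries labelled MAECs together. Integrin alpha 3 (Itga3), a laminin receptor, had 596, 629.5 and 694 CPM in MEFs against 1.19 to 2.29 in the libraries labelled MAECs (-8.71 ± 0.25, adjusted p = 4.7e-08). The T cell chemokines Cxcl10 (139.9 to 232 CPM in MEFs against 0.0520 to 0.499) and Ccl5 (95.01 to 118 against 0.0520 to 2.49) and the co-stimulatory receptor Tnfrsf9 (144 to 187 against 0.0831 to 1.30) were also on this side. Carbonic anhydrase 9 (Car9), a target of hypoxia signalling, had 72.6 to 106 CPM in MEFs against 0.457 to 1.21.

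The most abundant genes per kilobase among those at least 4-fold apart were, on the side of the libraries labelled MAECs, Spp1, the ferritin chains Ftl1 and Fth1, the galectin Lgals1, Prl2c2, Prl2c3, ubiquitin B (Ubb), annexin 1 (Anxa1), peroxiredoxin 1 (Prdx1) and Ecm1. Ftl1 had 12270, 12221 and 15817 CPM against 833 to 884, and Anxa1 had 5065, 5088 and 6140 against 553 to 666 CPM. On the fibroblast side they were mostly genes of translation, RNA binding and chromatin: Eef2 (3088 to 3425 CPM in MEFs against 553 to 582), Rpsa, Hnrnpa1, Hnrnpab, Hdgf, Kpnb1, Ybx3, Hmgb2 and Eif4g1, with Col1a1. Ferritin light chain has several processed copies in the genome, which leaves the level of Ftl1 uncertain.

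Ribosomal, mitochondrial and histone genes, which can differ with the library method, were counted as groups. The 79 autosomal cytosolic ribosomal protein genes measured summed to 41420 to 57806 CPM against 39662 to 43665 CPM, with a median of 0.15 over the 78 tested, of which 29 were higher, 19 lower and 30 did not pass; Rplp0 had 2495 to 3307 against 1994 to 2234 CPM. In the trend-removed fit 10 were higher and 62 lower, Rplp0 among the lower, with a median of -0.95. As fitted, Rplp0 lost its higher call without MAECs replicate 1 (0.42) or any 1 of the MEFs libraries (0.33, 0.27 and 0.34). The 15 mitochondrially encoded genes summed to 11637 to 17585 CPM against 14374 to 19655 CPM, with mt-Co1 lower (1461 to 1949 against 3977 to 6141 CPM) and mt-Cytb higher (2434 to 3846 against 1115 to 1406 CPM). Of these genes 3 were higher and 8 lower as fitted, with a median of -0.49; in the trend-removed fit 13 were lower, the median was -1.93 and mt-Cytb was at -0.15. Of 8 replication-dependent histone genes 6 were tested and 3 were higher (2 higher and 1 lower in the trend-removed fit), led by Hist1h2ao at 15.7 to 33.9 against 0 to 0.200 CPM. Several named genes overlap a gene on the opposite strand (Eng with Fpgs, Tagln with Pcsk7, Cdc20 with Elovl1, Col4a1 with Col4a2, Igf2r with Airn), and since the strand of counting is not given in the sources used here, reads of such pairs cannot be told apart.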

How the data were processed

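Bulk RNA was sequenced on 1 instrument type; only the 6 unstimulated libraries labelled MAECs and MEFs entered the fit. The authors deposited estimated counts per gene symbol, already whole numbers; the submitters' processing notes name STAR and RSEM, besides cutadapt, FastQC, DESeq2 and R 4.3.2, with builds mm10 and GRCm38.p6. The strand of counting is not given in the sources used here. Of 25192 symbols 98.3% were matched to GENCODE M21, and 835 on X or Y were left out. Genes passing filterByExpr (minimum count 10) were fitted with edgeR 4.0.16 (R 4.3.3; robust quasi-likelihood F-test, TMM, Benjamini-Hochberg 0.05), a script tested on simulated data. Depths were 21023626 to 52161186 counts; intervals and floors (3 counts) cover counting error only. Alternatives included limma-voom 3.58.1, DESeq2 1.42.0, other scalings, filters, fits with 18 or 27 libraries, and each library left out. The fit with the length and GC trend removed was chosen after seeing the data. Levels in macrophages and over 9 libraries are CPM scaled over all 27.

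The comparison and lists were chosen with earlier results of these data known. Genes were named by fold where the higher group averaged 50 CPM or more, and by level per kilobase among those at least 4-fold apart, in both cases with groups that did not overlap, and from each list by level plus fixed defining markers; other members were named after their values were seen. Some list members count in the totals and are not reported here by name. No 2 libraries held identical values.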

Additional observations from a re-analysis of the deposited data

How the results depend on the processing

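The count of genes higher in the libraries labelled MAECs (5316) ranged from 4155 to 6129 over the alternatives and the count lower (5051) from 3982 to 5754, in each case lowest when a log2 fold change of 1 was also required and highest with 27 libraries in the fit. Leaving out 1 library gave 4663 to 5557 higher, 4687 to 5558 lower, and 252 to 290 list members called against 262 of 318. Scaling moved the median over all genes from 0.04 to -0.16 with library totals and to 0.26 with the upper quartile. Of 251 genes tested that the text or the naming rule names, 197 kept direction and call under each alternative that tested them, the added log2 fold change of 1 not counted; stricter filters tested fewer. With the length and GC trend removed, direction turned for Aurka (-0.585), Ccnb1 (-0.404), Cdc20 (-0.572), Col1a2 (0.580), Ltbp3 (0.651), Ltbp4 (2.41), Mylk (0.786), Jag1 (0.022), Unc5b (0.997), Col1a1 (0.635), Fn1 (1.05), Cspg4 (0.542), Notch3 (3.303), Prrx1 (0.592), Igf2r (0.424), Lamb1 (0.148), Hspg2 (0.035), Cd68 (-0.741), Lyz2 (-1.01), Rrm2 (-0.662), Ifi27 (-0.038), mt-Atp6 (-1.06), mt-Atp8 (-0.094), mt-Co3 (-1.38), mt-Cytb (-0.149), Rpl23a (-1.36), Rpl32 (-0.424) and Rplp0 (-0.677). With a trend on length alone it turned for Aurka (-0.413), Cdc20 (-0.940), Notch3 (0.828), Prrx1 (0.815), Hmga2 (0.484), Cd68 (-0.862), Lyz2 (-1.09), Rrm2 (-0.358), Fosl1 (-0.368), mt-Atp6 (-1.14), mt-Atp8 (-0.223), mt-Co3 (-1.42), mt-Cytb (-0.131), Rpl23a (-1.25), Rpl32 (-0.454) and Rplp0 (-0.678). With 1 library left out mt-Co3 lay between -0.240 (without MAECs replicate 3) and 0.132. The cause was not tested. No paired analysis was possible because the labels give the 2 groups no shared replicate numbers. Depth limits genes under about 0.1 CPM.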
